A study of Mus musculus with 12 samples.

Results

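The genes described here are 33 interferon-gamma response genes of the mouse, taken as a list of gene names, drawn up with earlier results of these data known, and looked up in the deposited count table. All 33 of the 33 had counts, among 25700 genes listed, and all 33 were among the 13844 genes tested. They comprise 10 guanylate-binding proteins (GBP), 7 immunity-related GTPases (IRG), 4 genes of the receptor and its kinases, 2 transcription factors, 2 SOCS inhibitors, 5 genes of the immunoproteasome and its activator, and 3 further targets. RNA was sequenced in bulk from non-parenchymal liver cells that had been enriched with beads for F4/80, a surface protein of mouse macrophages. The mice were 8 to 10 weeks old and, per the labels, male, and the study asked how red cell uptake bears on the activation of liver macrophages. Cells were taken 30 h after an intraperitoneal injection. The 4 groups of 3 libraries were sph/sph mice given 20 mg/kg of agonistic anti-CD40, wild-type (WT) mice given the same antibody, sph/sph mice given saline and WT mice given saline. Mice of the sph/sph genotype have fragile red cells that are cleared by liver and spleen macrophages; the allele is present in every cell of the animal, and the controls are described as littermates. The table's column names call the control genotype heterozygous whereas the labels call it wild type, and it is named WT after the labels. The receptor CD40 is carried by B cells and dendritic cells as well as by macrophages, so the agonistic antibody does not act on macrophages alone.

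Interferon-gamma is made mainly by T cells and natural killer cells. It binds a receptor of the chains IFNGR1 and IFNGR2, which signals through the kinases JAK1 and JAK2 to the GAS element of target promoters and induces IRF1, which binds the related ISRE element, while SOCS1 and SOCS3 act as feedback inhibitors of signalling. In macrophages the targets include the GBP and IRG GTPases, which attack vacuoles of intracellular microbes, and the proteasome subunits PSMB8, PSMB9 and PSMB10, which take the place of PSMB5, PSMB6 and PSMB7 in the particle that cuts peptides for MHC class I.

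Promoter sequence is shown for 8 members with matches to these elements: 4 IRG genes that share 1 arrangement of both, Gbp7 with both, and the signalling genes Irf1, Irf8 and Socs1. RefSeq windows of 300 bases, from 250 before to 50 after the start site, were at hand for 25 members (31 windows), on GRCm38.p6. GAS was searched as TTCNNNGAA, which is its own reverse complement, and ISRE as GAAANNGAAA on both strands; GAS and ISRE matches can overlap where the GAA that ends one begins the other, which was not seen in the members' windows, and matches of 1 motif can overlap each other. GAS letters were present in 10 of the 31 windows and in 8.3% of all 32851 windows, ISRE letters in 11 of 31 and in 3.44% of all, and both in 6 of 31 and in 0.454% of all. The 6 genes with both were Gbp5, Gbp7, Igtp, Irgm2, Tgtp1 and Tgtp2. In Igtp, Irgm2, Tgtp1 and Tgtp2 the ISRE match began 11 bases after the GAS match began. The stretches below are 5′ to 3′ on the strand of the gene, with the matches in capitals and 20 flanking bases in lower case.
Igtp: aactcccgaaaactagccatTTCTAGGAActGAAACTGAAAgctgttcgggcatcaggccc
Irgm2: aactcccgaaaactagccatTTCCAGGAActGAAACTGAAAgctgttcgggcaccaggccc
Tgtp1: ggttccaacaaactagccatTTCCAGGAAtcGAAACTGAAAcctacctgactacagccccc
Tgtp2: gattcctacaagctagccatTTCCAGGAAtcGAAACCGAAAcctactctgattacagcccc
Gbp7: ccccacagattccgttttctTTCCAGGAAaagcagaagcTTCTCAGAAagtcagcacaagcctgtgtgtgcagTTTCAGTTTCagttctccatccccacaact
Irf1: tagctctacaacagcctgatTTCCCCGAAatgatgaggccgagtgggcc
Irf8: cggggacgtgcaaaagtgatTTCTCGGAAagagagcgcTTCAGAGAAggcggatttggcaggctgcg
Socs1: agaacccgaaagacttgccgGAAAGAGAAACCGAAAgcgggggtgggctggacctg
They lie at chr11:58199491-58199551 and chr11:58214882-58214942 on the plus strand for Igtp and Irgm2, and at chr11:48992294-48992354 and chr11:49064253-49064313 on the minus strand for Tgtp1 and Tgtp2. The Gbp7 stretch is chr3:142530210-142530312, plus strand, the Irf1 stretch chr11:53769904-53769952, plus strand, the Irf8 stretch chr8:120736167-120736233, plus strand, and the Socs1 stretch chr16:10785584-10785639, minus strand. Of 61 bases, 59 were identical between Igtp and Irgm2 and 47 between Tgtp1 and Tgtp2. The 2 ISRE matches of Socs1 overlap, Irf1 has 1 GAS match, and Irf8 has 2. A match is a run of letters in this window and does not show binding.

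Total counts ran from 14991250 to 16474784 in sph/sph anti-CD40, from 15883477 to 18940990 in WT anti-CD40, from 15931077 to 18984067 in sph/sph saline and from 15586731 to 18006254 in WT saline. Libraries are called A, B and C in the order of the table's columns, which carry no replicate number of the labels. Library A of every group had 0 counts on 4 Y-linked genes, against 2436 to 4055 in the other 8 libraries, although every label says male. Library C of sph/sph anti-CD40 stood apart: the summed CPM (counts divided by the scaled depth of the library) of the 10 GBP genes was 3203, 3692 and 733 in A, B and C of sph/sph anti-CD40, and that of the 4 B cell markers was 1347 in C against 29.5 to 221 in the other 11 libraries. All 6 genes used as markers of Kupffer cells, which are liver-resident macrophages, were detected in every library. Under anti-CD40 their sum was 13196 to 27695 CPM in sph/sph and 335 to 782 CPM in WT. Under saline it was 21502 to 29793 CPM in sph/sph and 17462 to 19643 CPM in WT. Monocyte and neutrophil markers ran the other way in WT: the 4 monocyte markers summed to 856, 528 and 188 CPM in sph/sph anti-CD40, 1608, 930.1 and 439 in WT anti-CD40, 62.5 to 215 in sph/sph saline and 121 to 172 in WT saline. The 5 neutrophil markers summed to 189, 70.8 and 63.6 CPM in sph/sph anti-CD40, 360.3, 465 and 124 in WT anti-CD40, at most 76.0 in sph/sph saline and 6.92 to 15.8 in WT saline. Of these, 2 of 4 monocyte markers and all 4 tested neutrophil markers rose in WT under anti-CD40, and their part in the values of the members was not tested. Within sph/sph anti-CD40, C also had the highest sums of 4 hepatocyte and 5 endothelial markers. The hepatocyte sums were 1096, 1174 and 3216 CPM and the endothelial sums 585, 1030 and 1538 CPM in A, B and C. Those of C lay within the range of the other groups. In bulk samples fewer cells of a type and less RNA per cell cannot be told apart. The summed CPM of 10 T and NK cell markers was 46.2, 2.22 and 70.4 in sph/sph anti-CD40 and 185, 1419.7 and 539 in WT anti-CD40, and the sums under saline ran from 2.42 to 11.5. The 5 erythroid markers summed to 589, 666 and 233 CPM in sph/sph anti-CD40 and 6.25, 7.08 and 2.95 in WT anti-CD40. Under saline they summed to 319, 423 and 296 CPM in sph/sph and 12.2, 8.24 and 7.20 in WT. All 5 were called higher in sph/sph under both treatments (edgeR), and their part in the values of the members was not tested.

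In WT mice most of these genes were higher under anti-CD40 than under saline. Of 33 members 27 rose and 1 fell, where 19.4% of the 13844 genes rose and 19.7% fell (edgeR quasi-likelihood test, Benjamini-Hochberg adjusted p below 0.05 over all genes). The median log2 fold of the members was 2.35, beside 0.05 over all genes tested. In 29 members all 3 anti-CD40 libraries lay above all 3 saline libraries, as in 29.3% of genes, and in 1 they lay below, as in 28% of genes. Leaving out the 4 A libraries left 17 members risen and 1 fallen, where 20.3% of genes were called in either direction, against 39.2% with all libraries. The 5 members without a call in all 12 libraries were Gbp3, Gbp8, Ifngr2, Jak1 and Psmb10. The calls of Gbp2, Gbp5, Gbp7, Irgm2, Irf1, Psme2 and Ubd were each lost in 1 of 20 alternatives, but in no fit that left out a single library. The highest edgeR adjusted p among those genes was 0.117, for Ubd.

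Among the guanylate-binding proteins, 8 of 10 rose in WT mice, with a median log2 fold of 3.10. Gbp2 (ENSMUSG00000028270, chromosome 3, 142620602 to 142638008, plus strand), a GTPase that coats vacuoles of microbes, had 1476, 1012 and 1637 CPM in the WT anti-CD40 libraries against 74.9, 67.6 and 86.6 CPM in the WT saline libraries. The groups were far apart and did not overlap. Its log2 fold was 4.17 ± 0.76 (SE) (edgeR adjusted p = 0.00231). Gbp10 (ENSMUSG00000105096, chromosome 5, 105215699 to 105239533, minus strand) had 122, 117 and 182 CPM under anti-CD40 and 5.98, 4.01 and 5.15 CPM under saline in WT, again with no overlap, and rose by 4.80 ± 0.81 on the log2 scale (edgeR adjusted p = 0.00141). The counts of Gbp10 are uncertain, since 84.1% of its 50-base words occur in other genes, mostly in Gbp6, and 46.3% of its exon bases overlap Gm43302. The same limit holds for Gbp6, of whose 50-base words 70.7% are shared, mostly with Gm43302. Of the other risers, Gbp5, which promotes inflammasome assembly, rose by 3.84, Gbp6 by 3.53, Gbp4 by 3.50, Gbp11, annotated as a polymorphic pseudogene, by 2.71, Gbp7 by 1.77 and Gbp9 by 1.03. The call of Gbp9 was lost without WT saline B or WT anti-CD40 C (highest edgeR adjusted p over 20 alternatives 0.0777). The members that missed the threshold differed from this pattern. Gbp3 had 278, 206 and 290.4 CPM under anti-CD40 and 175, 131 and 175 CPM under saline in WT (log2 fold 0.69 ± 0.43, edgeR adjusted p = 0.227), without overlap. Gbp8 had 270.0, 92.7 and 127 CPM and 229, 193 and 229 CPM in the same groups, with 1 anti-CD40 library above and the other two below all saline libraries (log2 fold -0.41 ± 0.43, edgeR adjusted p = 0.465). Under saline in WT, Gbp8 had the highest mean level of the GBP members, 198 ± 13.5 TPM, a level per exon length as a share of the library (SD, n = 3), followed by Gbp3 at 154 ± 20.6 TPM, and these ranges did not overlap. Under anti-CD40 in WT the order was different: Gbp2 led with 1759.6 ± 443 TPM, and Gbp8 was at 147 ± 65.5 TPM.

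All 7 immunity-related GTPases rose in WT mice, with a median log2 fold of 3.45. Tgtp1 (ENSMUSG00000078922, chromosome 11, 48985327 to 48994172, minus strand), an effector GTPase known as IRGB6, had 104, 71.3 and 116 CPM in WT anti-CD40 against 1.61, 1.54 and 0.887 CPM in WT saline. The saline libraries were all low and the anti-CD40 libraries were all far above them. The log2 fold was 6.17 ± 0.92 (edgeR adjusted p = 0.000738), the highest of both GTPase families. Tgtp2 (ENSMUSG00000078921, chromosome 11, 49057194 to 49064206, minus strand) had 118, 105 and 194 CPM and 7.71, 9.56 and 6.98 CPM in the same groups and a log2 fold of 4.10 ± 0.73 (edgeR adjusted p = 0.00190). These neighbouring genes are near-identical copies: 81.2% of the 50-base words of Tgtp1 and 86.6% of those of Tgtp2 are shared, mostly with each other, so the split of reads between them is uncertain. Igtp, also called Irgm3, which regulates the effector IRG proteins, rose by 3.55, and the effector gene Iigp1, or Irga6, by 3.45. The regulators Irgm1 and Irgm2 rose by 2.52 and 1.83, and Ifi47 by 2.08, whose call was lost without WT saline B (highest edgeR adjusted p over 20 alternatives 0.106). Per exon length Igtp stood highest of the IRG genes under anti-CD40 in WT, at 933 ± 490.0 TPM, with a range that overlapped that of Ifi47 (547 ± 61.0 TPM). The plot of GTPase levels shows both families in every library.

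**Figure D1:**
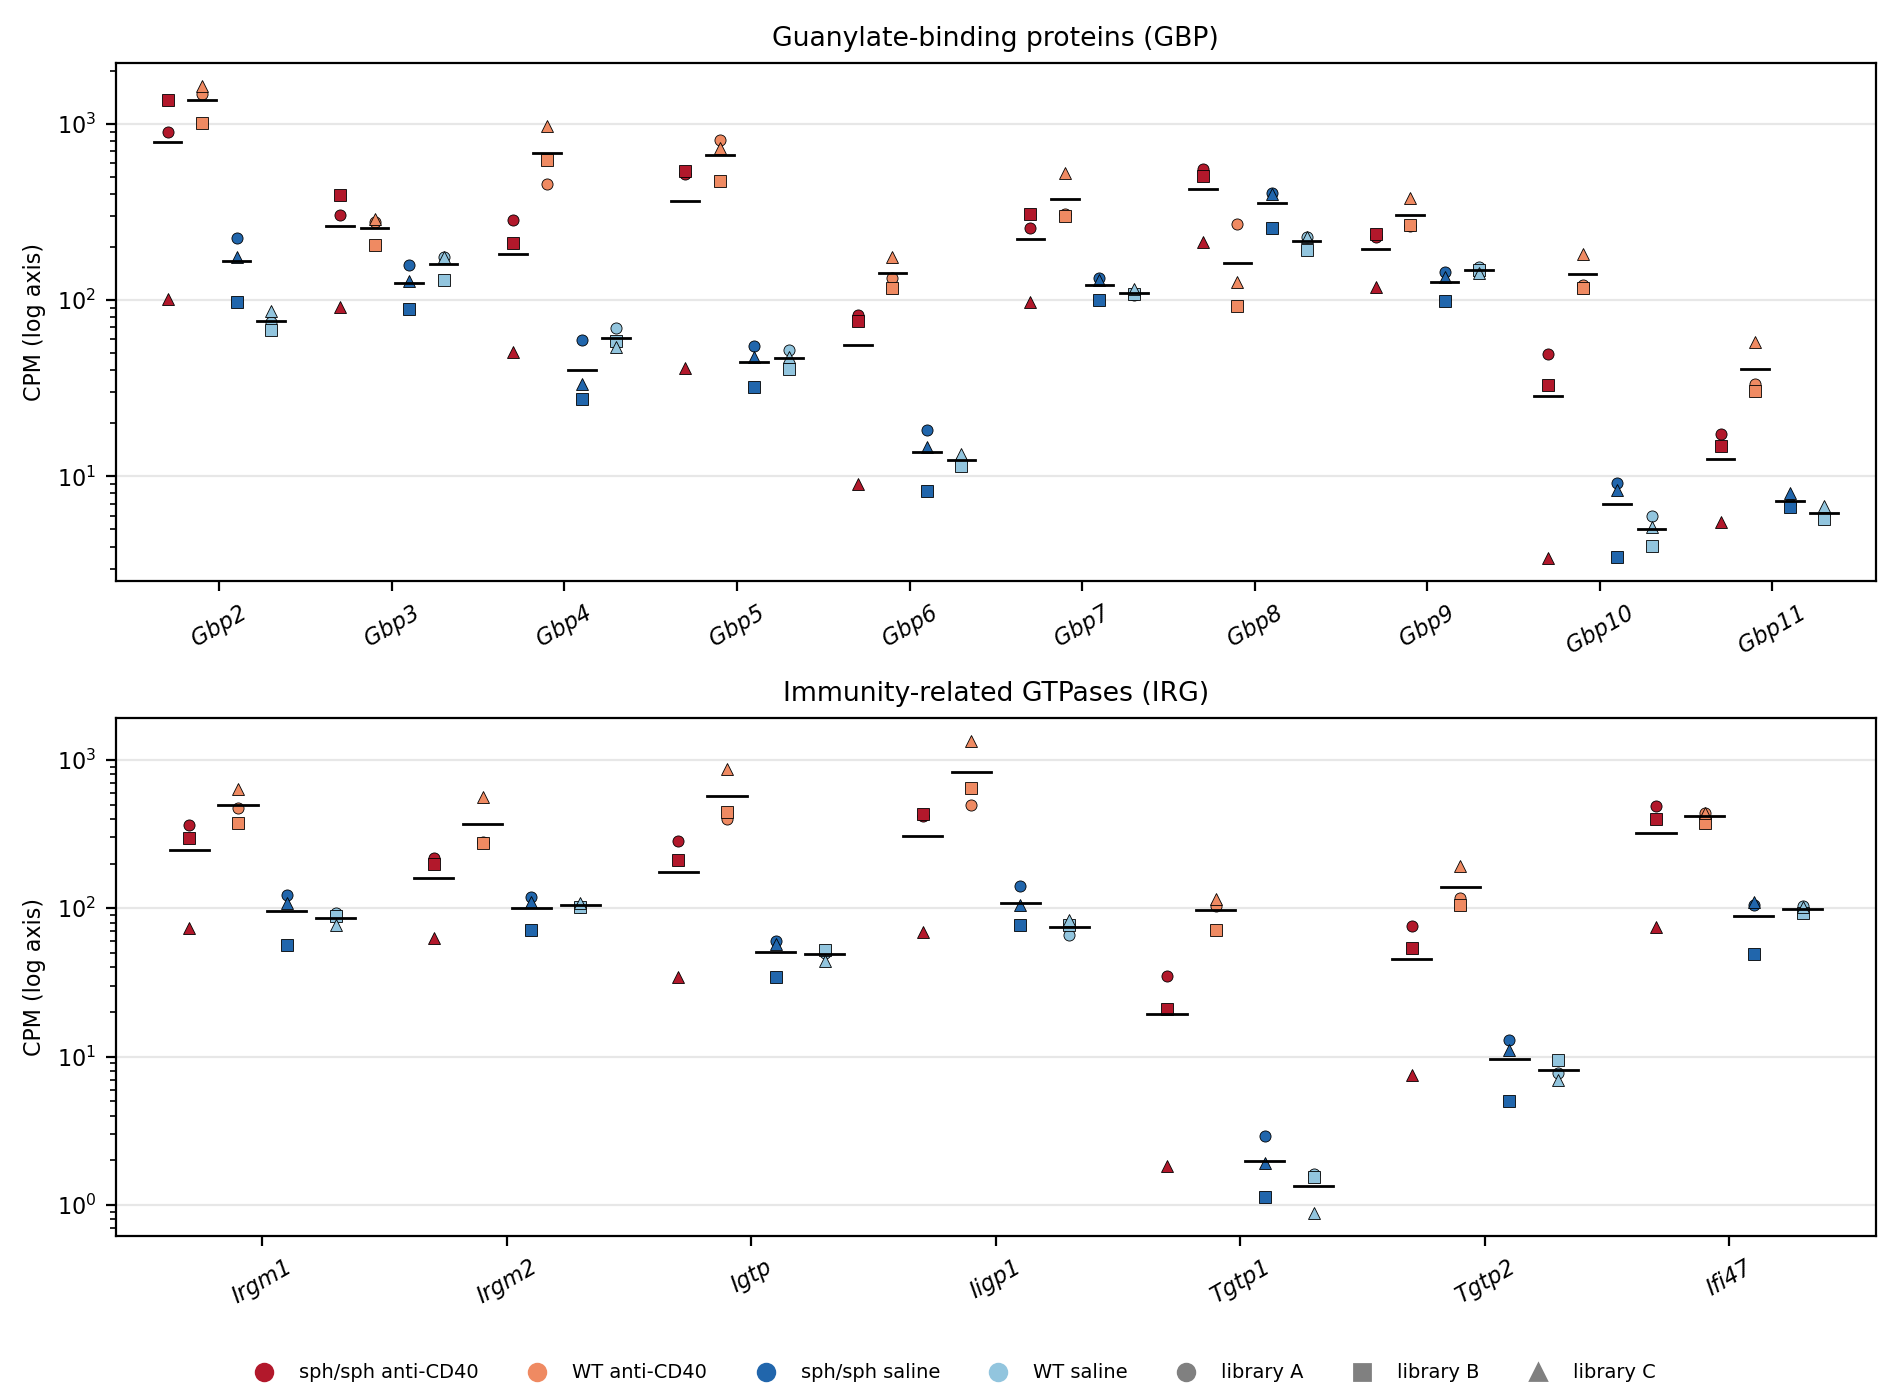
CPM on a log axis of the 10 GBP genes (top) and the 7 IRG genes (bottom) in every library; colours are the 4 groups, marker shapes are libraries A to C, and horizontal bars are group means of 3 libraries. The WT anti-CD40 points lie above both saline groups for all genes but Gbp8, and the triangle of sph/sph anti-CD40 C lies below the other sph/sph anti-CD40 libraries in each of the 17 genes.

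Of the signalling genes, the receptor chain Ifngr1 was the member that fell in WT mice. Ifngr1 (ENSMUSG00000020009, chromosome 10, 19591949 to 19610229, plus strand), which binds the ligand, had 121, 154 and 125 CPM in WT anti-CD40 against 657, 620.2 and 781 CPM in WT saline. Every anti-CD40 library was below every saline library. The log2 fold was -2.36 ± 0.20 (edgeR adjusted p = 3.36e-05), a 5.13-fold fall. Of the 6 Kupffer cell markers 5 fell in the same comparison, and their part in the fall of Ifngr1 was not tested. The second chain Ifngr2 had 160.4 ± 71.0 CPM under anti-CD40 and 119 ± 7.51 CPM under saline in WT (SD, n = 3 each; edgeR adjusted p = 0.269). Of the receptor's kinases, Jak2 (ENSMUSG00000024789, chromosome 19, 29251828 to 29313080, plus strand) had 258, 231 and 255 CPM against 87.3, 87.3 and 80.6 CPM and rose by 1.54 ± 0.16 (edgeR adjusted p = 8.89e-05). Its libraries were tightly grouped within each condition. Jak1 had 521 ± 178 CPM under anti-CD40 and 422 ± 58.5 CPM under saline (edgeR adjusted p = 0.442).

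Both transcription factors and both SOCS inhibitors rose in WT mice. Irf1 (ENSMUSG00000018899, chromosome 11, 53770014 to 53778374, plus strand), which carries the signal on to ISRE-bearing genes, had 832, 648 and 707 CPM against 241, 204 and 151 CPM, a log2 fold of 1.87 ± 0.45 (edgeR adjusted p = 0.00912). Irf8 (ENSMUSG00000041515, chromosome 8, 120736358 to 120756694, plus strand), a factor that also shapes the macrophage and dendritic cell lineages, had 969.7, 713 and 817 CPM against 331, 270.0 and 229 CPM, a log2 fold of 1.59 ± 0.23 (edgeR adjusted p = 0.000549). Neither gene's groups overlapped. The summed CPM of 5 dendritic cell markers was 358, 204 and 192 in WT anti-CD40 and 15.0, 26.9 and 20.4 in WT saline, and its part in the rise of Irf8 was not tested. Socs1 (ENSMUSG00000038037, chromosome 16, 10782240 to 10785536, minus strand), which blocks the JAK kinases, had 37.6, 48.8 and 58.7 CPM against 1.93, 1.32 and 1.11 CPM. It was close to undetected under saline and present in each anti-CD40 library, with a log2 fold of 5.06 ± 0.74 (edgeR adjusted p = 0.000652). Socs3 (ENSMUSG00000053113, chromosome 11, 117966079 to 117970047, minus strand), best known as the inhibitor of interleukin-6 receptor signalling, had 365, 179 and 173 CPM against 11.4, 10.5 and 13.0 CPM, a log2 fold of 4.36 ± 0.53 (edgeR adjusted p = 0.000249).

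Other genes of the pathway moved in both directions in WT mice. Of 26 other interferon-gamma signalling genes 11 rose and 3 fell, with a median log2 fold of 0.55. The ligand gene Ifng had 243, 706 and 335 counts in WT anti-CD40 against 2, 1 and 0 counts in WT saline (edgeR adjusted p = 0.000298). It was almost unread under saline, so no fold is given. Nlrc5, the activator of MHC class I genes, rose by 2.49. Jak3 rose by 1.80, and Tyk2 had a log2 fold of 0.35 ± 0.21 (edgeR adjusted p = 0.206). The T and NK cell marker sum was higher in the same libraries; its part in the values of Ifng and Jak3 was not tested.

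Of 10 other interferon-inducible GTPases tested, 4 rose and 4 fell in WT mice, so the rise of the members was not shared by every gene of these families. Gbp2b, also known as Gbp1, had 57.2, 3.20 and 7.39 CPM in WT anti-CD40 against 519, 309.9 and 234 CPM in WT saline. The log2 fold was -3.98 ± 1.32 (edgeR adjusted p = 0.0363), opposite in sign to Gbp2. In sph/sph mice the log2 fold of Gbp2b for anti-CD40 was 2.54, without a call. Under saline its log2 fold for sph/sph against WT was -3.77, also without a call. The difference of its responses, sph/sph minus WT, was 6.51, and 1 of the 10 genes was called higher for this difference (edgeR). Gm4951 rose by 2.01.

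Subunits of the immunoproteasome rose together with the ordinary proteasome in WT mice. Of 5 genes 4 rose, with a median log2 fold of 1.62, and the fifth, Psmb10, had a log2 fold of 1.19 ± 0.44 (edgeR adjusted p = 0.0520). Psmb8 (ENSMUSG00000024338, chromosome 17, 34197721 to 34201454, plus strand), the catalytic subunit that replaces PSMB5, had 624, 457 and 423 CPM in WT anti-CD40 against 188, 146 and 137 CPM in WT saline. Its groups did not overlap, and the log2 fold was 1.68 ± 0.40 (edgeR adjusted p = 0.00897). An antisense gene overlaps 14.7% of its exon bases, and whether the counting used strand is not given in the sources used here. Psme2 (ENSMUSG00000079197, chromosome 14, 55587441 to 55591113, minus strand), a subunit of the PA28 activator that opens the particle, had 907, 496 and 491 CPM against 139.6, 115 and 117 CPM, a log2 fold of 2.35 ± 0.52 (edgeR adjusted p = 0.00627). Of its 50-base words 28.3% are shared with the copy Psme2b. Its partner Psme1 rose by 1.23 and Psmb9 by 1.62. Leaving out WT anti-CD40 A, or WT saline A, B or C, ended the call of Psme1, and leaving out WT anti-CD40 A, or WT saline B or C, that of Psmb9; over 20 alternatives the highest edgeR adjusted p was 0.122 for Psme1 and 0.0664 for Psmb9. Of 14 genes of the constitutive core 10 rose, with a median of 0.97, and of 25 regulator and assembly genes 18 rose, with a median of 0.82. Psmb6 rose by 1.55, Psmb7 by 1.47 and Psmb5 by 0.99; in the other list Psmd8, a subunit of the cap, rose by 1.86.

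The 3 further targets had large changes in WT mice. Ubd (ENSMUSG00000035186, chromosome 17, 37193892 to 37196095, plus strand), which encodes the ubiquitin-like modifier FAT10, had 984, 377 and 573 CPM in WT anti-CD40 against 0.386, 0.275 and 0.111 CPM in WT saline. It was close to unread under saline, so its log2 fold of 11.28 ± 1.82 (edgeR adjusted p = 0.00116) is imprecise. Under anti-CD40 in WT it had the highest mean level per length of all members, 2162 ± 781 TPM, with a range that overlapped that of Gbp2 (1759.6 ± 443 TPM). Upp1 (ENSMUSG00000020407, chromosome 11, 9118103 to 9136170, plus strand), uridine phosphorylase, had 243, 333 and 418 CPM against 1.86, 3.79 and 3.16 CPM, a log2 fold of 6.81 ± 0.86 (edgeR adjusted p = 0.000302). Wars (ENSMUSG00000021266, chromosome 12, 108860030 to 108894174, minus strand), the tryptophanyl-tRNA ligase, which interferon-gamma is known to induce, rose by 3.47, with 664 ± 338 CPM against 59.8 ± 6.54 CPM (SD, n = 3 each). Of 19 other cytosolic tRNA ligases 13 rose, with a median log2 fold of 0.61, led by Yars at 1.32 and Vars at 1.18.

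In sph/sph mice edgeR called no member for anti-CD40 against saline with all libraries, where 0.578% of genes rose and 0.202% fell. The median log2 fold of the members was 1.13, beside 0.04 over all genes, and 31 of the 33 were positive. At an unadjusted p below 0.05, 23 members were higher and 1 was lower, as were 21% of genes in either direction; DESeq2 called 15 higher and 1 lower, where 5.24% of genes were higher and 4.72% lower, and limma-voom called 0. The count rested on library C of sph/sph anti-CD40, which was singled out after the members' own values were seen, so that the values without it are a description and no independent test. Without it 27 members rose and 1 fell, where 9.83% of genes rose and 7.04% fell, and the median was 1.48. The spread is visible in single genes. Gbp5 had 519, 542 and 41.5 CPM in sph/sph anti-CD40 against 54.7, 32.2 and 47.5 CPM in sph/sph saline. Libraries A and B were far above the saline libraries, and C lay among them. The log2 fold of Gbp5 was 3.03 ± 0.72 with C (edgeR adjusted p = 0.0772) and 3.56 ± 0.28 without it (edgeR adjusted p = 0.000429).

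The members called without library C were most of the GTPases, all immunoproteasome genes and the 3 further targets. Of 10 GBP genes 9 rose, with Gbp8 not called, and of 7 IRG genes 6 rose, with Irgm2 not called. All 5 immunoproteasome genes rose, with a median of 1.47, and so did Irf1, Socs1, Socs3, Ubd, Upp1 and Wars. Ubd had 161, 77.4 and 0.432 CPM in sph/sph anti-CD40 against 0.998, 0.237 and 0.582 CPM in sph/sph saline. Only C was as low as saline. Jak2 rose by 0.68 and Ifngr1 fell, with a log2 fold of -0.92. Irf8 was the transcription factor without a call, with 371, 266 and 331 CPM in sph/sph anti-CD40 against 322, 219 and 317 CPM in sph/sph saline, groups that overlapped. The ligand gene Ifng, at 18, 2 and 8 counts in sph/sph anti-CD40 against 2, 4 and 0 counts in sph/sph saline, was not called with or without C. All 14 genes of the constitutive proteasome core rose without C, with a median of 0.91.

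**Figure D2:**
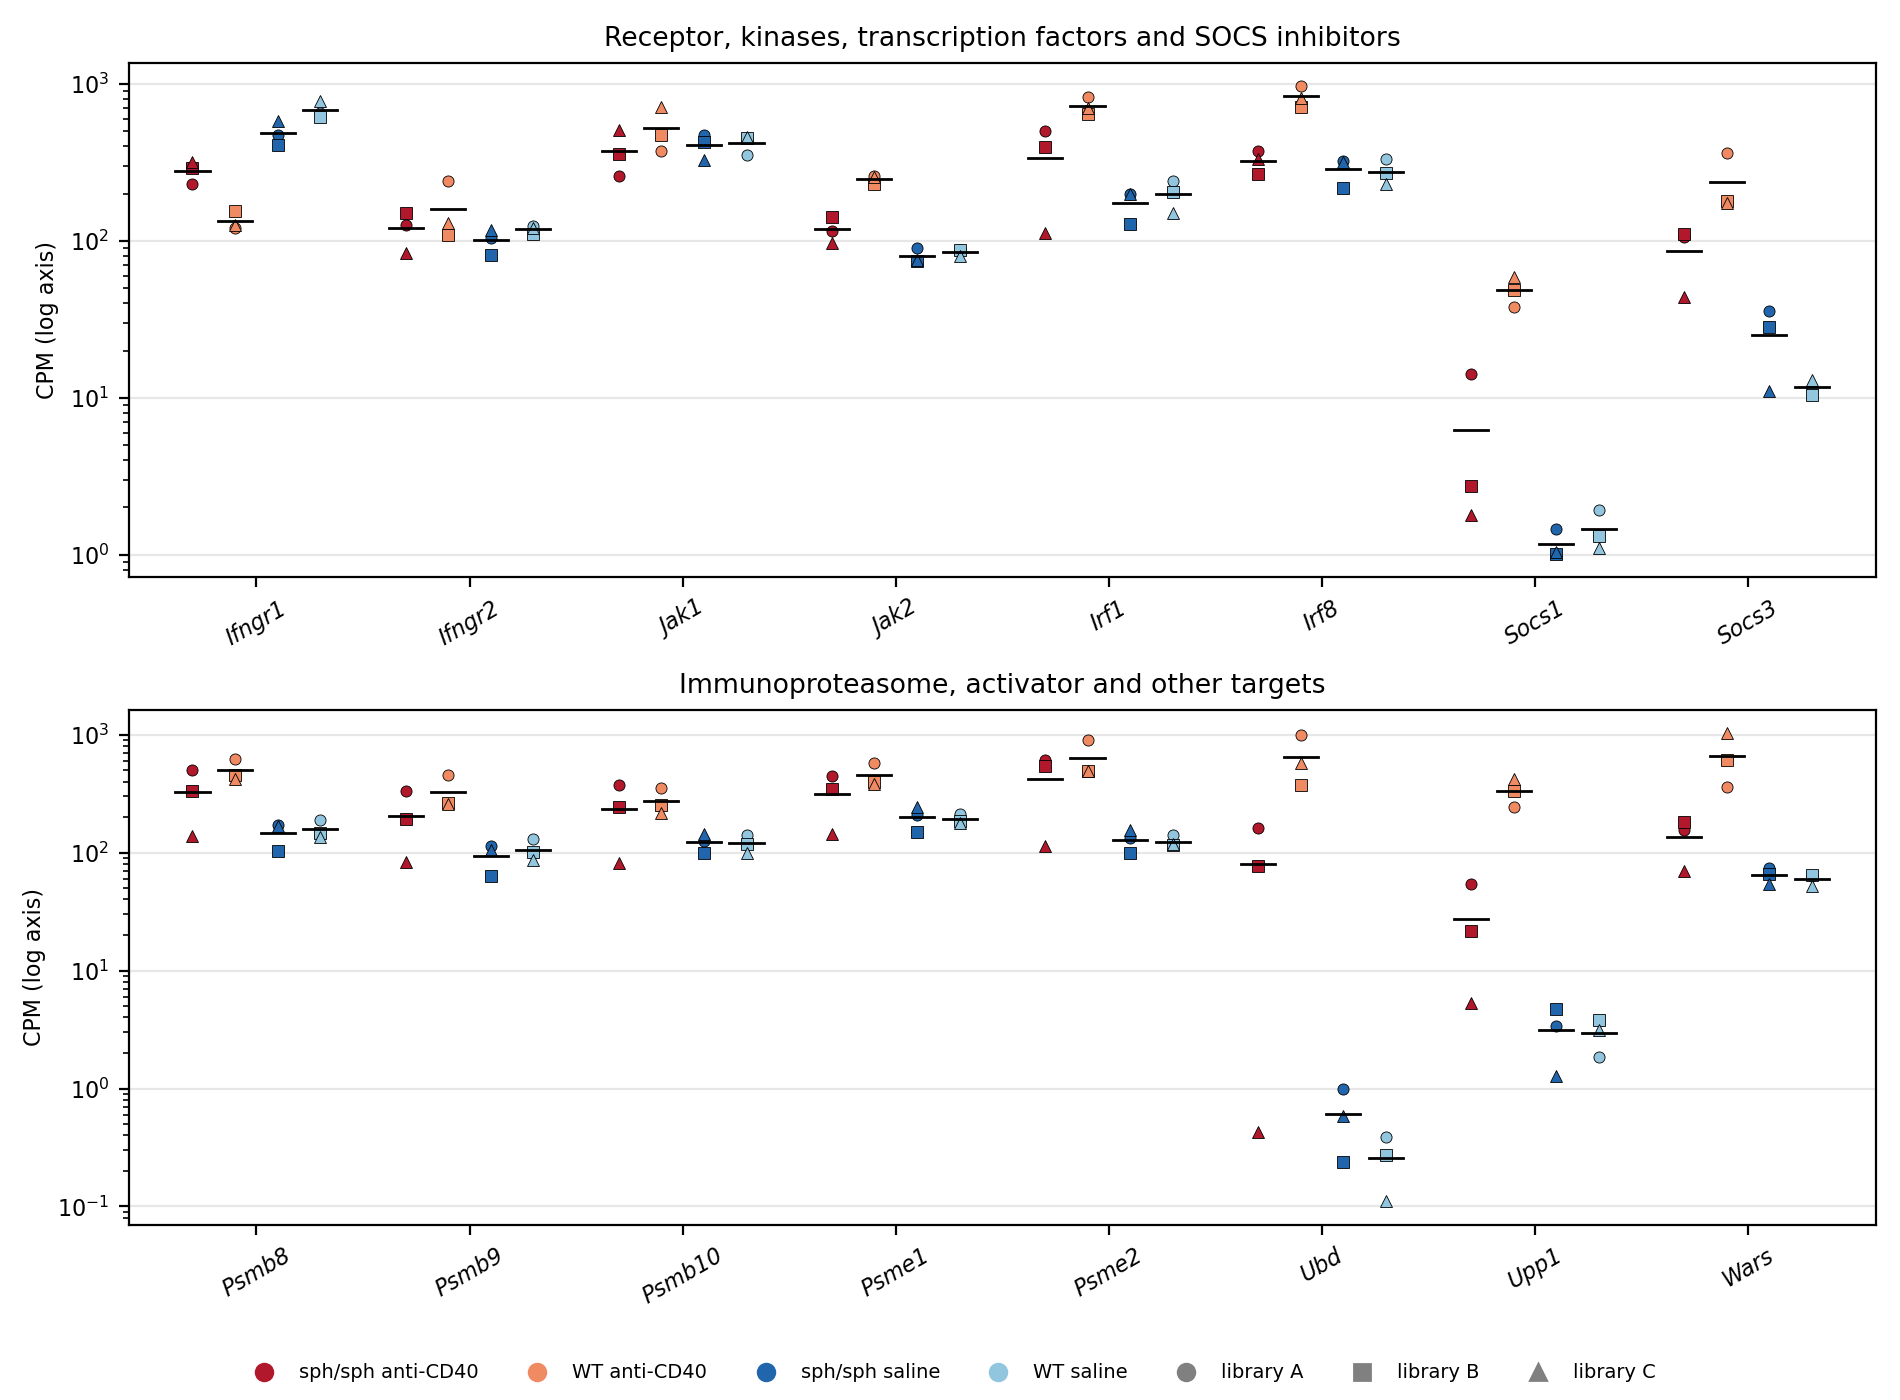
CPM on a log axis of the receptor, kinase, transcription factor and SOCS genes (top) and of the immunoproteasome genes, Ubd, Upp1 and Wars (bottom) in every library; colours are the 4 groups, shapes are libraries A to C, and bars are group means of 3 libraries. Ifngr1 is lowest in WT anti-CD40, Irf8 in sph/sph anti-CD40 overlaps the saline values, and Ubd in sph/sph anti-CD40 C lies at 0.432 CPM.

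Between the genotypes under anti-CD40, sph/sph libraries were lower for 7 members and higher for 1, where 6.19% of genes were lower and 11.5% were higher. This comparison shares the WT anti-CD40 libraries with the response in WT, so it is not independent of it. The median log2 fold of the members was -1.07, beside 0.08 over all genes. DESeq2 called 16 lower and 2 higher, where 10.6% of genes were lower and 13.9% higher. A fit of these 2 groups alone, which called 5.56% of genes in either direction, called only Jak2 and Irf8 lower and none higher. In 19 members all 3 sph/sph libraries lay below all 3 WT libraries, as in 11.7% of genes, and in 1 they lay above, as in 16.7% of genes. Without library C of sph/sph anti-CD40, 11 members were lower and 2 higher, where 10.8% of genes were lower and 13.5% higher, and the median was -0.75. The calls lower both with and without C were Gbp4, Gbp11, Jak2, Irf8, Socs1, Upp1 and Wars, and Ifngr1 was higher in both. Of 20 alternatives, the call was lost in 9 for Gbp4, in 3 for Gbp11, in 2 for Ifngr1, in 1 each for Socs1, Upp1 and Wars, and in 0 for Jak2 and Irf8.

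Of the GTPases, Gbp4 and Gbp11 were lower in sph/sph under anti-CD40 and no IRG gene was called with all libraries. The call of Gbp4 was lost in 7 of 12 fits that left out 1 library (WT anti-CD40 B or C, sph/sph anti-CD40 B, sph/sph saline C, or WT saline A, B or C), and that of Gbp11 in 1 (WT anti-CD40 C), and the highest adjusted p over the 20 alternatives was 0.143 for Gbp4 and 0.0954 for Gbp11, both edgeR values. Gbp4 (ENSMUSG00000079363, chromosome 5, 105115767 to 105139586, minus strand) had 287, 210.4 and 51.0 CPM in sph/sph anti-CD40 against 457, 626 and 974 CPM in WT anti-CD40. All sph/sph libraries were below all WT libraries, with C lowest (log2 fold -1.91 ± 0.55, edgeR adjusted p = 0.0380). Gbp11 (ENSMUSG00000092021, chromosome 5, 105323042 to 105346472, minus strand) had 17.5, 14.9 and 5.50 CPM against 33.2, 30.7 and 57.6 CPM, without overlap (log2 fold -1.69 ± 0.38, edgeR adjusted p = 0.0142). Leaving out C added Gbp10, Igtp and Tgtp1 to the lower calls, at -1.76, -1.21 and -1.80, with Gbp10 and Tgtp1 limited by their shared sequence. Several GTPases had differences that missed the threshold with and without C: Gbp2 had 899, 1368 and 102 CPM against 1476, 1012 and 1637 CPM (log2 fold -0.27 ± 0.36 without C, edgeR adjusted p = 0.630), and Ifi47 had 492, 399 and 74.8 CPM against 440.4, 377 and 440.3 CPM (0.09 ± 0.29 without C, edgeR adjusted p = 0.847). Gbp8 ran the other way, at 554, 507 and 213 CPM in sph/sph anti-CD40 against 270.0, 92.7 and 127 CPM in WT anti-CD40. Libraries A and B were above all WT libraries and C lay within them (log2 fold 1.38 ± 0.43, edgeR adjusted p = 0.0522; without C 1.71 ± 0.39, edgeR adjusted p = 0.0133). Among the other GTPases F830016B08Rik was lower, at -2.18 ± 0.38, and 9930111J21Rik1 higher, at 0.74 ± 0.21 (edgeR log2 folds).

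Ifngr1, Jak2, Irf8 and Socs1 differed between the genotypes under anti-CD40 whether or not library C entered. Ifngr1 had 229, 291 and 316 CPM in sph/sph anti-CD40 against 121, 154 and 125 CPM in WT anti-CD40. Each sph/sph library exceeded each WT library, C included (log2 fold 1.06 ± 0.19, edgeR adjusted p = 0.00480). All 6 Kupffer cell markers were higher in sph/sph in this comparison; their part in the difference of Ifngr1 was not tested. Jak2 had 115, 143 and 97.4 CPM against 258, 231 and 255 CPM, a 2.10-fold lower level in sph/sph (log2 fold -1.07 ± 0.16, edgeR adjusted p = 0.00150). Irf8 had 371, 266 and 331 CPM against 969.7, 713 and 817 CPM, a 2.58-fold lower level (log2 fold -1.37 ± 0.22, edgeR adjusted p = 0.00273). Library C was not the lowest for Irf8, in contrast to the GTPases. The dendritic cell markers summed to 15.3, 14.1 and 103 CPM in sph/sph anti-CD40 and 358, 204 and 192 CPM in WT anti-CD40; their part in the Irf8 difference was not tested. Socs1 had 14.2, 2.74 and 1.78 CPM against 37.6, 48.8 and 58.7 CPM, with A highest among the sph/sph libraries but below every WT library (log2 fold -2.96 ± 0.66, edgeR adjusted p = 0.0130). Socs3, at 106, 110.1 and 43.9 CPM against 365, 179 and 173 CPM, did not overlap either (log2 fold -1.46 ± 0.47, edgeR adjusted p = 0.0570).

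Upstream of these genes, Ifng had 18, 2 and 8 counts in sph/sph anti-CD40 against 243, 706 and 335 counts in WT anti-CD40 (log2 fold -5.24 ± 0.86, edgeR adjusted p = 0.00277). The T and NK cell markers were lower in the same libraries, and fewer such cells and less Ifng RNA per cell cannot be told apart. Of the 26 other signalling genes 3 were lower and 1 higher: Jak3 and Stat3 were lower, at -0.96 ± 0.21 and -0.83 ± 0.13, and Socs6 was higher, at 0.53 ± 0.16 (edgeR log2 folds).

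No immunoproteasome gene was called between the genotypes under anti-CD40, with a median log2 fold of -0.58 with all libraries and -0.18 without C. Psmb8 had 498, 333 and 139 CPM in sph/sph anti-CD40 against 624, 457 and 423 CPM in WT anti-CD40. Library A lay within the WT range, B below it and C far below it (edgeR adjusted p = 0.308). Psmb10 had 377, 241 and 82.2 CPM against 351, 255 and 218 CPM, also with overlap. The constitutive core had 0 of 14 genes called, and among 25 regulators the activator gene Psme4 was higher by 0.71 ± 0.16 (edgeR log2 fold).

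Upp1 had the largest log2 fold of the members between the genotypes, and Wars was called as well. Upp1 had 54.2, 21.7 and 5.34 CPM in sph/sph anti-CD40 against 243, 333 and 418 CPM in WT anti-CD40, 12.3-fold lower (log2 fold -3.61 ± 0.73, edgeR adjusted p = 0.00864). Wars had 156, 182 and 69.2 CPM against 360.1, 604 and 1027 CPM, 4.88-fold lower (log2 fold -2.29 ± 0.42, edgeR adjusted p = 0.00479). Neither pair of groups overlapped. Of the 19 other cytosolic tRNA ligases only Yars was called, lower at -0.72 ± 0.20 (edgeR log2 fold). Ubd had 161, 77.4 and 0.432 CPM against 984, 377 and 573 CPM; the groups did not overlap, but it was called only without library C (log2 fold -3.02 ± 1.20, edgeR adjusted p = 0.114 with C; -2.43 ± 0.52, edgeR adjusted p = 0.0111 without).

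**Figure D3:**
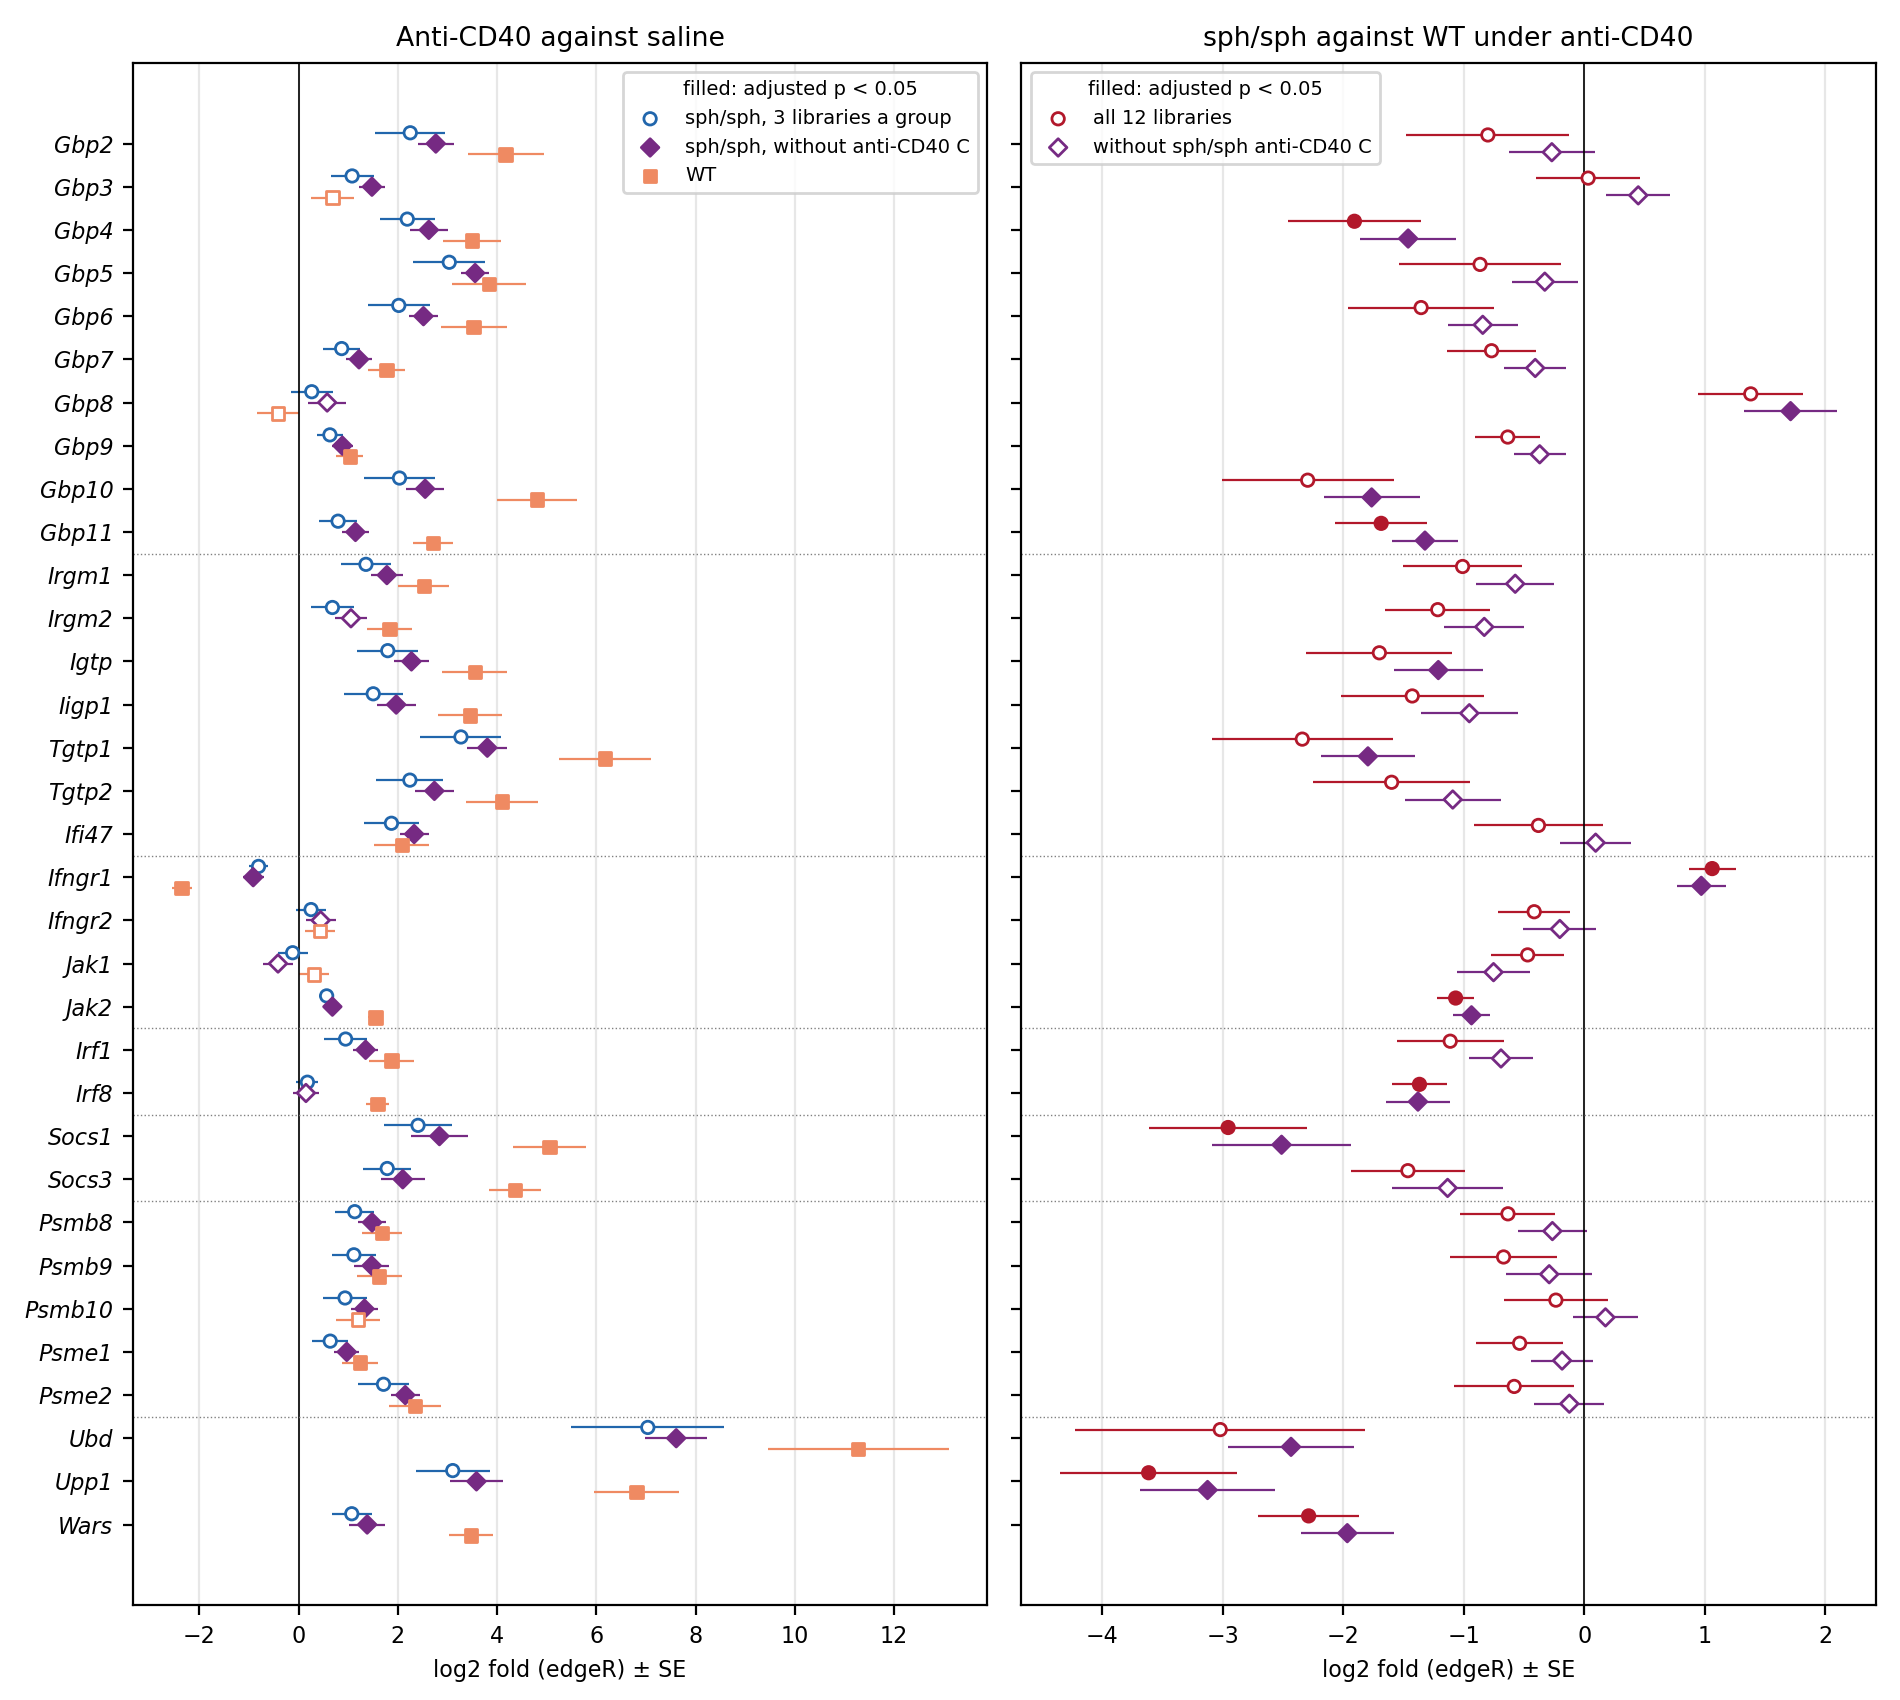
Log2 folds from edgeR with SE for all 33 members: on the left anti-CD40 against saline in sph/sph with and without library C and in WT, on the right sph/sph against WT under anti-CD40 with and without library C; filled symbols mark adjusted p below 0.05 and dotted lines separate the roles. In WT 27 members rise and Ifngr1 falls, no sph/sph symbol with all libraries is filled, and on the right 7 members are lower and Ifngr1 is higher with all 12 libraries.

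The response itself was compared between the genotypes by the interaction, the log2 fold of sph/sph minus that of WT. Of the members 1 was higher and 3 were lower, where 3.18% of genes were higher and 1.12% lower. For Ifngr1 the log2 fold for anti-CD40 was -0.81 in sph/sph and -2.36 in WT, a difference of 1.55 ± 0.27 (edgeR adjusted p = 0.0120). Jak2 had 0.56 in sph/sph and 1.54 in WT (difference -0.98 ± 0.22, edgeR adjusted p = 0.0343). For Irf8 the values were 0.18 and 1.59 (difference -1.41 ± 0.31, edgeR adjusted p = 0.0340), and for Wars 1.07 and 3.47 (difference -2.40 ± 0.57, edgeR adjusted p = 0.0434). Of the 19 other cytosolic tRNA ligases 2 were called lower too, with a median difference of -0.17. Of the 6 Kupffer cell markers 5 were called higher, with a median difference of 6.59, and their part in the difference of Ifngr1 was not tested. The median difference of the members was -1.15, beside 0.05 over all genes. DESeq2 called 1 higher and 8 lower, where 6.02% of genes were higher and 4.04% lower. Without sph/sph anti-CD40 C, 8 members were lower and 1 higher, where 2.4% of genes were lower and 4.3% higher, with Gbp10, Gbp11, Tgtp1, Ubd and Upp1 added. None of the members was called lower when any one of WT saline A, B or C, sph/sph saline A, or WT anti-CD40 B or C was left out, and 1 was when sph/sph saline B or C or sph/sph anti-CD40 B was; Ifngr1 kept its call in each of these. Leaving out the 4 A libraries together left 1 lower call and 0 higher calls. For the immunoproteasome the differences of the 5 genes ran from -0.64 to -0.26, none of them called.

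Under saline no member was called between the genotypes by edgeR, where the share of genes called was 1.6% for higher and 0.433% for lower in sph/sph. At an unadjusted p below 0.05, 1 member was higher and 1 lower in the edgeR test, as were 13.1% of genes in either direction; DESeq2, which called 4.1% of genes higher and 1.9% lower, and limma-voom called 0 members. The median log2 fold of the members was 0.05, beside 0.01 over all genes. Gbp2 and Gbp8 had all sph/sph libraries above all WT libraries, as did 16.7% of genes, and Ifngr1 had them below, as did 14.3% of genes. Gbp2 had 226, 97.4 and 175 CPM in sph/sph saline against 74.9, 67.6 and 86.6 CPM in WT saline (log2 fold 1.12 ± 0.68, edgeR adjusted p = 0.550). Ifngr1 had 476, 410.3 and 578 CPM against 657, 620.2 and 781 CPM (log2 fold -0.49 ± 0.19, edgeR adjusted p = 0.294). Socs3 had 35.9, 28.4 and 11.1 CPM in sph/sph saline against 11.4, 10.5 and 13.0 CPM in WT saline, with libraries A and B high and C within the WT range (edgeR adjusted p = 0.354).

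The balance between immunoproteasome and constitutive subunits was described by the log2 ratio of the CPM of each pair within a library. To each CPM 0.5 was added, and apart from this added value the ratio does not depend on the library's scaling. With 3 libraries against 3, an exact permutation test cannot go below p = 0.1, so no ratio could pass the threshold, and 12 tests were run. Log2 (Psmb8/Psmb5) was 2.13 ± 0.159 in sph/sph anti-CD40 and 3.01 ± 0.104 in WT anti-CD40 (SD, n = 3 each; difference -0.87, exact two-sided p = 0.1, adjusted p = 0.4). Each sph/sph library lay below each WT library, and the difference ran from -0.96 to -0.81 as single libraries were left out. In WT the same ratio was 3.01 ± 0.104 under anti-CD40 and 2.31 ± 0.316 under saline (difference 0.70, exact p = 0.1, adjusted p = 0.4), again without overlap. In sph/sph it was 2.13 ± 0.159 under anti-CD40 and 1.86 ± 0.447 under saline, with overlap (exact p = 0.4, adjusted p = 0.533). Between the genotypes under saline this ratio was also lower on average in sph/sph, with overlap (difference -0.45, exact permutation p = 0.3, adjusted p = 0.533). Log2 (Psmb9/Psmb6) was 0.270 ± 0.222 in sph/sph anti-CD40 and 0.551 ± 0.0254 in WT anti-CD40, with each sph/sph library lower (difference -0.28, exact p = 0.1, adjusted p = 0.4; -0.40 without sph/sph anti-CD40 A and -0.18 without sph/sph anti-CD40 B); in WT it was 0.551 ± 0.0254 under anti-CD40 and 0.457 ± 0.296 under saline, with overlap. Under saline log2 (Psmb9/Psmb6) was -0.0292 ± 0.412 in sph/sph and 0.457 ± 0.296 in WT, with overlap (difference -0.49, exact permutation p = 0.2, adjusted p = 0.533). The lower means in sph/sph were therefore not confined to anti-CD40. Log2 (Psmb10/Psmb7) overlapped in all 4 comparisons, with 0.581 ± 0.408 in sph/sph anti-CD40 and 0.448 ± 0.187 in WT anti-CD40. Library C of sph/sph anti-CD40, low for each of the 5 immunoproteasome genes, was not the lowest of its group in the ratios of Psmb8 and Psmb9.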

How the data were processed

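The authors deposited whole-number read counts per Ensembl gene, 1 column per library, from RNA of liver cells enriched for F4/80. The submitters' processing notes name genome build GRCm38.p5, featureCounts, SAMtools 1.9 and STAR 2.7.0e; how strand and multi-mapping reads were handled is not given in the sources used here. Per the labels' protocols the library kit was stranded. From the deposited counts, 25587 of 25700 genes were matched to a symbol, and genes kept by filterByExpr were tested with R 4.3.3 and edgeR 4.0.16, using TMM normalization, a robust quasi-likelihood fit with a mean per group over all 12 libraries, and Benjamini-Hochberg adjustment over the 13844 genes tested. The common biological coefficient of variation was 0.382. The SE of a log2 fold is its size divided by the square root of F. CPM use TMM-scaled library sizes; TPM use the union of exons of GENCODE M21, whose GRCm38 coordinates are printed. DESeq2 1.42.0 and limma 3.58.1 (voom) were alternatives, beside other scalings, no filter, the 2 groups alone and each library left out; leaving out the 4 A libraries, or a term for them, was chosen after seeing the data. The fits were tried on simulated data in which a small share of genes changed, evenly up and down, in the WT anti-CD40 libraries only. This does not test them where many genes change, as in WT here. In each role and comparison, values per library go to the called members with the 2 largest log2 folds at a mean of at least 10 CPM in either group, and to calls opposite to their role; others printed per library were chosen after their values were seen. Genes outside the list are named as the 2 largest calls of their list or as direct counterparts. Members and lists were chosen with earlier results of these data known. The design text counts mice, 3 per group. The p-values set differences between groups against the spread between these libraries. Results for some genes are not reported here.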

Additional observations from a re-analysis of the deposited data

Results flagged for a closer look

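For 4 members the response to anti-CD40 differed between the genotypes by a direct test of the difference, the interaction term of the edgeR fit of all 12 libraries. For Ifngr1 the difference, sph/sph minus WT, was 1.55 on the log2 scale (edgeR adjusted p = 0.0120), since the level fell less in sph/sph than in WT libraries. For Jak2 it was -0.98 (edgeR adjusted p = 0.0343), for Irf8 -1.41 (edgeR adjusted p = 0.0340) and for Wars -2.40 (edgeR adjusted p = 0.0434), each a smaller rise in sph/sph libraries. Over 19 alternatives the call of Ifngr1 was lost in 1, that of Irf8 in 9, that of Jak2 in 11 and that of Wars in 12, with the sign kept in all of them. Without sph/sph anti-CD40 C the differences were 1.47 for Ifngr1, -0.84 for Jak2, -1.41 for Irf8 and -2.07 for Wars.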

How the results depend on the processing

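No result changed sign past the threshold. For sph/sph against WT under anti-CD40, where 1 member was higher and 7 were lower, DESeq2 called 2 higher and 16 lower, scaling by library totals 2 and 13, a fit of the 2 groups alone 0 and 2; limma-voom and a term for the libraries without Y-linked counts called 2 higher, and leaving out the 4 A libraries called 0 higher. The share of all genes called in either direction was 17.7% with edgeR, 24.6% with DESeq2, 16% with library totals, 5.56% with the 2 groups alone, 17.3% with limma-voom, 18.2% with the term and 8.36% without the A libraries. For anti-CD40 in sph/sph, DESeq2 called 15 higher and 1 lower where edgeR called 0 (10.4% of genes against 0.78%). The DESeq2 shares in this paragraph are of genes to which DESeq2 gave an adjusted p. Those given earlier by direction are of all 13844 genes tested. For the interaction, the lower calls were 8 with DESeq2 and 5 with library totals, and without the 4 A libraries 1, with 0 higher (10.1%, 4.46% and 1.09% of genes called, against 4.3% with edgeR). For anti-CD40 in WT, 17 members rose without the 4 A libraries, which leaves 2 libraries a group (20.3% of genes called, against 39.2%). The causes were not tested. Leaving out the 4 A libraries lowers the number of libraries and also removes all those without Y-linked counts, and these cannot be told apart. Leaving out 1 library at a time gave 1 to 2 higher and 5 to 11 lower calls for sph/sph against WT under anti-CD40, 0 to 27 higher and 0 to 1 lower for anti-CD40 in sph/sph, 0 to 8 lower for the interaction and 23 to 29 higher for anti-CD40 in WT. The highest counts came without sph/sph anti-CD40 C. No paired analysis was possible because the columns carry no replicate number of the labels, and other numbers are shared only between A libraries. The A columns of both saline groups share 2 numbers, and those of both anti-CD40 groups share 1. What these numbers mark is not given in the sources used here. Genes with few reads under saline, such as Ubd, Socs1 and Tgtp1, have folds limited by depth.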
